A study of Mus musculus with 4 samples.

Results

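The SERINC family (serine incorporators) comprises 5 mouse genes, Serinc1 to Serinc5, that encode membrane proteins with many membrane-spanning segments. The members were chosen by gene name, and the family itself was selected with the measured KO and WT counts in view. Their KO to WT differences are therefore given as descriptions. The tests across all genes also covered the members, and nothing is read from the outcome for a member. Of the 5 named members, 4 had a row among the 23475 genes of the deposited tables, and all 4 were among the 17696 genes that passed the filter on low counts. Serinc4 had no row in the tables used here and was not analysed here beyond its position.

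SERINC proteins were named for a proposed role in bringing serine into the synthesis of phosphatidylserine and sphingolipids, the serine-derived lipids of cell membranes and myelin. Human SERINC proteins have also been described as scramblases, which let lipids move between the leaflets of a membrane. Human SERINC3 and SERINC5 enter budding retrovirus particles and lower their infectivity, and the viral protein Nef counteracts them. In rat brain, Serinc5 was described as a gene of myelin-forming oligodendrocytes.

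Gene expression was measured by mRNA sequencing of an astrocyte preparation from mouse cerebral cortex, taken on postnatal day 5. The KO group held 2 libraries from PD1cKO-Cx3 mice, a conditional deletion of PD-1, which is an inhibitory immune receptor encoded by Pdcd1. The WT group held 2 libraries from PD1fl/fl mice, which carry the floxed PD-1 gene. What the suffix Cx3 stands for, the cells in which the deletion occurs, the deleted exons, and whether the 2 libraries of a group came from separate or pooled animals are not stated in the labels. The spread between the 2 libraries of a group may therefore be technical.

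Library totals ranged from 14224519 to 16961160 counts. Pdcd1 had 0 and 20 counts in the KO libraries, against 0 and 0 in the WT libraries, so it gave no check of the deletion. KO replicate 2 stood apart in sex-linked transcripts, with 0 counts of Xist and 2472 of Ddx3y, while the other 3 libraries had 6732 to 8564 counts of Xist and 0 of Ddx3y. The 16 astrocyte markers, none of them at 0 in any library, had a summed level of 9464 and 8327 CPM (counts scaled to a common library size) in the KO libraries, against 9784 and 9013 CPM in the WT libraries. Slc1a3, the astrocyte glutamate transporter, averaged 2825 ± 115 CPM in KO and 2974 ± 30.7 CPM in WT (n = 2 libraries per group, SD). Microglia and macrophage markers, in contrast, summed to 5423 and 4503 CPM in the KO libraries, against 1107 and 1531 CPM in the WT libraries, and none of the 20 was at 0 in any library.

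Across all tested genes, edgeR's quasi-likelihood test with Benjamini-Hochberg adjustment called 3 genes higher in KO (0.017%) and 0 lower (0%) at an adjusted p under 0.05. At an unadjusted p under 0.05 the counts were 1040 higher (5.88%) and 427 lower (2.41%). Both KO libraries lay above both WT libraries for 21.2% of tested genes and below both for 18.4%. The number called higher was 6 when KO replicate 1 was left out and 0 when KO replicate 2 was. Leaving out WT replicate 1 gave 1, and leaving out WT replicate 2 gave 41. Of the 4 SERINC members tested, 0 were called in either direction, 2 lay above (Serinc3 and Serinc5), 1 lay below (Serinc2) and 1 overlapped (Serinc1). Before adjustment, 2 members (Serinc3 and Serinc5) had a p under 0.05. DESeq2 called 1 member, Serinc3, against 1.78% of all genes called higher, and limma-voom also called Serinc3 alone among the 4, against 0.141%. Since the family was picked from this same contrast, nothing is read from these member counts.

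**Figure D1:**
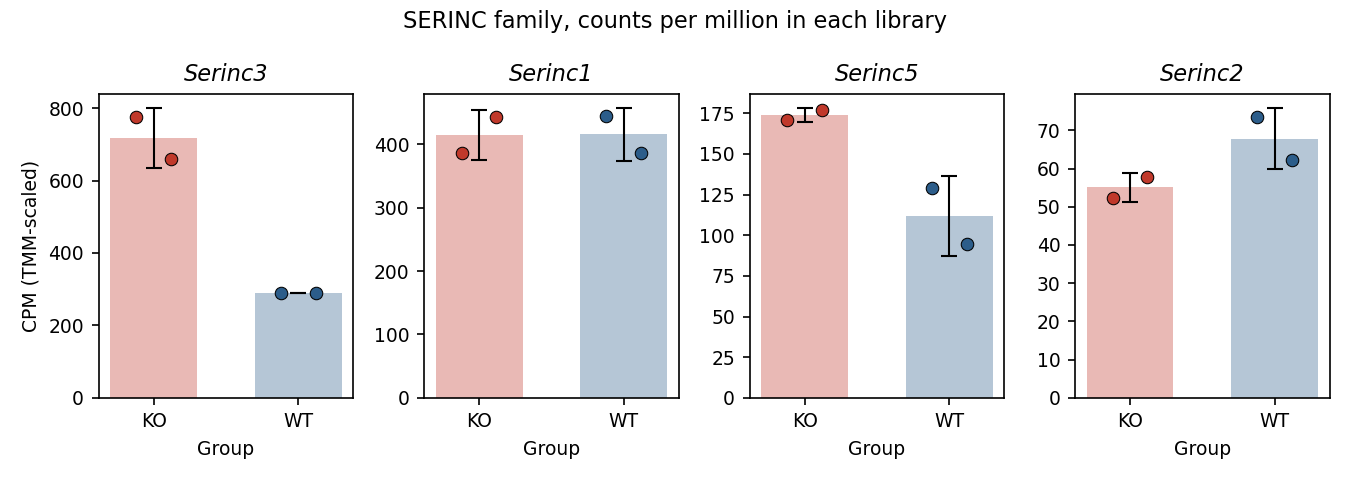
Expression of the 4 measured SERINC genes in each library, in CPM with TMM-scaled library sizes, with KO on the left and WT on the right of each panel. Points are libraries and bars are group means with SD (n = 2 each). Serinc3 sits at 776 and 659 CPM in KO and near 290 CPM in both WT libraries, while the Serinc1 groups overlap.

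Serinc3 (ENSMUSG00000017707, chr2:163623272-163645131, minus strand, GRCm38) is the member whose human counterpart was described as a restriction factor alongside SERINC5. It had 12422 and 10751 counts in the KO libraries, against 4883 and 4172 counts in the WT libraries. Scaled for depth, this was 776 and 659 CPM in KO, against 289 and 290 CPM in WT. The groups were far apart, and the WT libraries were almost equal to each other. The means were 718 ± 82.7 CPM in KO and 290 ± 0.494 CPM in WT (n = 2 libraries per group, SD). The fitted log2 fold change of KO over WT was 1.31 ± 0.12 (SE), a 2.48-fold higher level, and 92.7% of tested genes had a lower one. Without KO replicate 2, the library that stood apart, it was 1.42. In the authors' deposited tables, each of which sets 1 KO library against 1 WT library, Serinc3 was marked significant in 4 of 4. Its log2 fold changes there were 1.42, 1.39, 1.19 and 1.16. The 4 comparisons share the same libraries and have no replicates, so nothing is read from the marks.

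In bulk libraries such as these, a different number of cells of a type and a different amount of RNA per cell cannot be told apart. The microglia marker sum was high in the same libraries as Serinc3, and its KO to WT ratio was 3.76, against 2.48 for Serinc3. Expressed as a share of that marker sum, Serinc3 was 14.3% and 14.6% in the KO libraries, against 26.1% and 18.9% in the WT libraries. The endothelial marker sum also moved with the groups, at 618 and 317 CPM in KO, against 196 and 78.6 CPM in WT. The part of these cell types in the Serinc3 difference was not tested.

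The sequence upstream of Serinc3 is printed because this member differed most between the groups. It covers 250 bases before the annotated start (chr2:163645144-163645393, minus strand, RefSeq, GRCm38.p6, written 5′ to 3′ along the gene), with motif matches in capitals.
Serinc3: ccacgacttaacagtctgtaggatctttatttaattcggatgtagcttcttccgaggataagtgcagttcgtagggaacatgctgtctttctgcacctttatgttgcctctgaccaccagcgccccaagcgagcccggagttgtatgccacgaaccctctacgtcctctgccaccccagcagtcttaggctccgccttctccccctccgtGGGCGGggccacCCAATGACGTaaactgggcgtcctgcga
The motifs searched on both strands were the GC box (GGGCGG), the CCAAT box (CCAAT), the ETS core (CCGGAA), the PU box core (GAGGAA), the cAMP response element core (TGACGT) and the TATA box (TATAAA). The Serinc3 window held 1 GC box, 1 CCAAT box and 1 cAMP response element core, the last of which overlaps the CCAAT box. Among 32851 RefSeq windows of 250 upstream bases, 32.7% held a GC box, 33.8% a CCAAT box and 6.47% a cAMP response element core. A match is a description of the letters only. The antisense gene 0610039K10Rik overlaps the 5′ end of Serinc3 on the opposite strand and shares 134 exonic bases with it. The processed pseudogene Gm12420 on chromosome 4 has 90.7% identity to Serinc3 over 1043 aligned bases. Neither had a row in the tables, and no source says if reads were counted by strand, so the Serinc3 counts are uncertain by what these shared bases contribute.

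Serinc5 (ENSMUSG00000021703, chr13:92611138-92711944, plus strand) is the other member with a human counterpart active against retroviruses, and the one tied to myelin in the rat. It had 2733 and 2887 counts in the KO libraries, against 2170 and 1361 counts in the WT libraries. In CPM this was 171 and 177 in KO, against 129 and 94.6 in WT. Both KO libraries were above both WT libraries, and the WT libraries differed from each other more than the KO libraries did. The means were 174 ± 4.42 CPM in KO and 112 ± 24 CPM in WT (n = 2 libraries per group, SD), a fitted log2 fold change of 0.64 ± 0.18 (SE) or 1.56-fold. Leaving out KO replicate 2 gave 0.61. Leaving out WT replicate 1 gave 0.88, and leaving out WT replicate 2 gave 0.44. The log2 fold changes in the authors' deposited tables ran from 0.41 to 0.88, and Serinc5 was marked significant in 0 of 4. Nothing is read from these marks either.

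Myelinating oligodendrocyte markers summed to 771 and 981 CPM in the KO libraries, against 634 and 423 CPM in the WT libraries. Of the 12 markers, 11 had a row, and none of these was at 0 in all libraries. Of the 10 tested, 6 lay higher in both KO libraries and 1 lower, against 21.2% and 18.4% of all tested genes. The fitted log2 fold change of Mbp, a major myelin protein gene, was 0.85 ± 0.21 (SE). Ermn, a cytoskeletal protein gene of oligodendrocytes, went the other way, with 1.81 and 2.21 CPM in KO, against 7.47 and 8.48 CPM in WT (log2 fold change -1.98 ± 0.53). Ermn is named after its values were seen. The myelin marker sum put the 4 libraries in the same order as Serinc5, and so did the oligodendrocyte precursor marker sum, at 2599 and 2633 CPM in KO, against 2469 and 1911 CPM in WT. The KO to WT ratio of the sums was 1.66 for myelin and 1.19 for precursor markers, against 3.76 for the microglia and 3.4 for the endothelial markers. The part of any of these cell types in the Serinc5 difference was not tested.

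The sequence before the annotated start of Serinc5 is shown for comparison with that of Serinc3. It covers 203 bases (chr13:92610888-92611090, plus strand, RefSeq, GRCm38.p6), with matches to the same motifs in capitals.
Serinc5: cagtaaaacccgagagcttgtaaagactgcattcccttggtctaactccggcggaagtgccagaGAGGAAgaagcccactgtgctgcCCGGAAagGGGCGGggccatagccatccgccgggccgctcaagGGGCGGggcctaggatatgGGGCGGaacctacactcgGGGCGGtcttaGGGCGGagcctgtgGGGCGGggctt
This window held 6 GC boxes, 1 ETS core and 1 PU box core, and no match to the CCAAT box or the cAMP response element core. Among the 32851 windows, 12% held an ETS core and 23.3% a PU box core. The GC box was the motif found upstream of both genes, and neither held TATAAA, which 12.4% of windows held.

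Serinc1 (ENSMUSG00000019877, chr10:57515774-57532530, minus strand), whose product is annotated to the endoplasmic reticulum membrane, had 6185 and 7220 counts in the KO libraries, against 7515 and 5557 counts in the WT libraries. This gave 387 and 443 CPM in KO, against 445 and 386 CPM in WT. The ranges of the groups nearly coincided. The means were 415 ± 39.8 CPM in KO and 416 ± 41.7 CPM in WT (n = 2 libraries per group, SD), and the fitted log2 fold change was -0.0043 ± 0.13 (SE). It was -0.11 without KO replicate 2.

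Serinc2 (ENSMUSG00000023232, chr4:130253495-130279205, minus strand) was the member with the lowest counts, at 838 and 941 in the KO libraries, against 1240 and 894 in the WT libraries. Scaled for depth it had 52.4 and 57.7 CPM in KO, against 73.5 and 62.2 CPM in WT. The KO libraries were both below the WT libraries, by a gap smaller than the distance between the libraries of either group. The means were 55 ± 3.77 CPM in KO and 67.8 ± 8.01 CPM in WT (n = 2 libraries per group, SD), with a log2 fold change of -0.30 ± 0.19 (SE). It was -0.37 without KO replicate 2 and -0.17 without WT replicate 1. Counting error was 0.90% to 3.45% of a value across the 4 genes and all libraries, and the SD between the libraries of a group was 0.171% to 21.5% of its mean.

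Serinc4 (ENSMUSG00000046110, chr2:121439059-121456781, minus strand) shares exonic bases with Ell3 on the same strand (1436 bases) and with Serf2 (2296 bases) and Hypk (1576 bases) on the opposite strand. These neighbours had rows. Serf2 had 167 and 145 counts in KO, against 196 and 141 in WT, Hypk had 34 and 24 in KO, against 12 and 18 in WT, and Ell3 had at most 5 in any library.

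**Figure D2:**
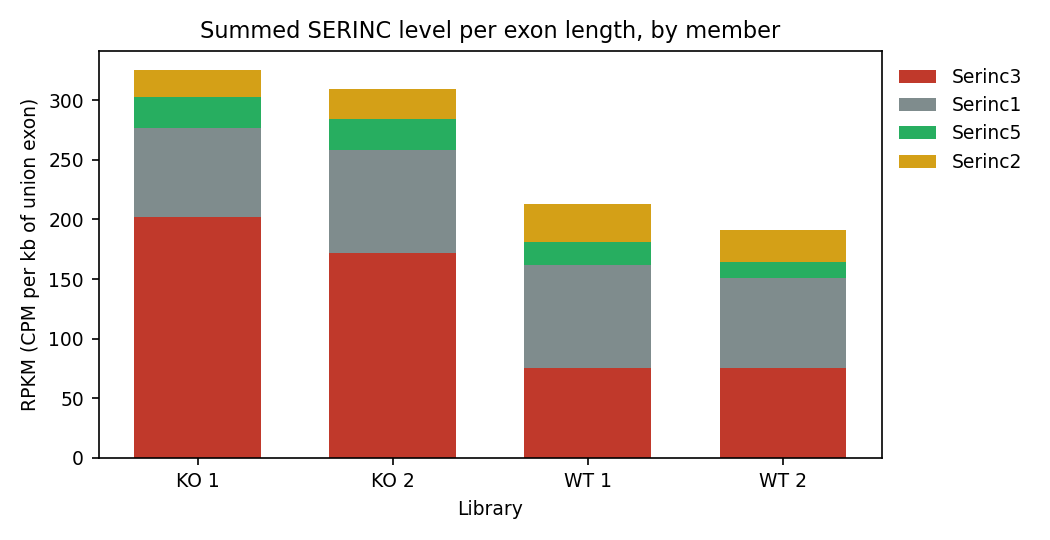
Stacked bars of the level per length of the 4 measured SERINC genes in each library, in RPKM (CPM per kilobase of exon), with KO libraries left of WT libraries. Serinc3 and Serinc1 make up most of the family level in all 4 libraries, and Serinc3 leads in both KO libraries at 202 and 172 RPKM.

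Levels of different genes were compared per kilobase of exon. Serinc3 had 202 and 172 RPKM in the KO libraries, against 75.4 and 75.5 RPKM in the WT libraries. Serinc1 had 75.1 and 86 RPKM in KO, against 86.5 and 75 RPKM in WT. The 2 genes were thus at like levels in WT, where Serinc1 was above Serinc3 in WT replicate 1 and level with it in WT replicate 2, while Serinc3 was well above Serinc1 in both KO libraries. The ratio of Serinc3 to Serinc1 was 2.69 and 2 in KO, against 0.871 and 1.01 in WT. With the longest transcript as the length, it was 1.57 and 1.16 in KO, against 0.508 and 0.587 in WT, so Serinc1 led in both WT libraries under that length.

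The other members were lower. Serinc5 had 25.6 and 26.5 RPKM in KO, against 19.3 and 14.2 RPKM in WT, and Serinc2 had 22.6 and 24.9 RPKM in KO, against 31.7 and 26.8 RPKM in WT. Serinc5 was therefore above Serinc2 in the KO libraries by a small margin, and Serinc2 was above Serinc5 in both WT libraries. Summed over the 4 genes, the family had 325 and 309 RPKM in KO, against 213 and 192 RPKM in WT (mean 317 ± 11.5 in KO and 202 ± 15 in WT, n = 2 libraries per group, SD). These means differed by 115 RPKM, and those of Serinc3 alone by 111 RPKM. Mean Serinc5 was higher in KO (26 against 16.7 RPKM) and mean Serinc2 lower (23.7 against 29.2 RPKM), so these differences partly cancelled. Serinc3 made up 62.1% and 55.6% of the family level in KO, against 35.4% and 39.4% in WT. Among all tested genes, its level per length stood above 99.3% and 99.1% of genes in the KO libraries, against 97.2% in each WT library, and that of Serinc1 above 97.1% to 97.7% in all 4.

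The coding sequences also differ among the members. The proteins are 453 residues (Serinc1), 459 (Serinc2), 472 (Serinc3), 492 (Serinc4) and 461 (Serinc5) long in the annotation used. Coding bases were most alike between Serinc1 and Serinc3, at 63.5% identity, and least alike between Serinc3 and Serinc4, at 47.5%. The pair closest in sequence, Serinc1 and Serinc3, was thus also the most abundant pair per length, but only Serinc3 of the pair had groups that did not overlap.

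Genes with the most similar course over the 4 libraries were ranked by the root mean square difference of centred log2 CPM among 9999 genes with a mean of at least 10 CPM. Nearest to Serinc3 were St3gal6 (0.022), Trmt2b (0.043), Fli1 (0.056), Man2b1 (0.073) and Lyn (0.080). St3gal6 encodes a sialyltransferase, Fli1 an ETS family transcription factor, Man2b1 a lysosomal mannosidase and Lyn a kinase of the Src family. Lyn, for example, had 83.9 and 61 CPM in KO, against 28.4 and 28.7 CPM in WT. Nearest to Serinc5 were Cnpy3 (0.025), Ssh2 (0.036), C2cd2 (0.045), Fam98a (0.046) and Golga2 (0.046). Cnpy3 encodes a chaperone of Toll-like receptors, Ssh2 a cofilin phosphatase and Golga2 a Golgi matrix protein. Serinc2 lay nearest to Magi1 (0.012), Amotl2 (0.014), Cdh2 (0.020), Fnbp1l (0.024) and Scrib (0.024), of which Cdh2 encodes N-cadherin and Scrib a cell polarity protein. Serinc1, which hardly varied, lay nearest to Jph4 (0.014), Pitpnb (0.016), Spr (0.018), Rsl24d1 (0.018) and Ttc9c (0.018). With 4 libraries many genes share a course by group, and these distances are descriptions.

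**Figure D3:**
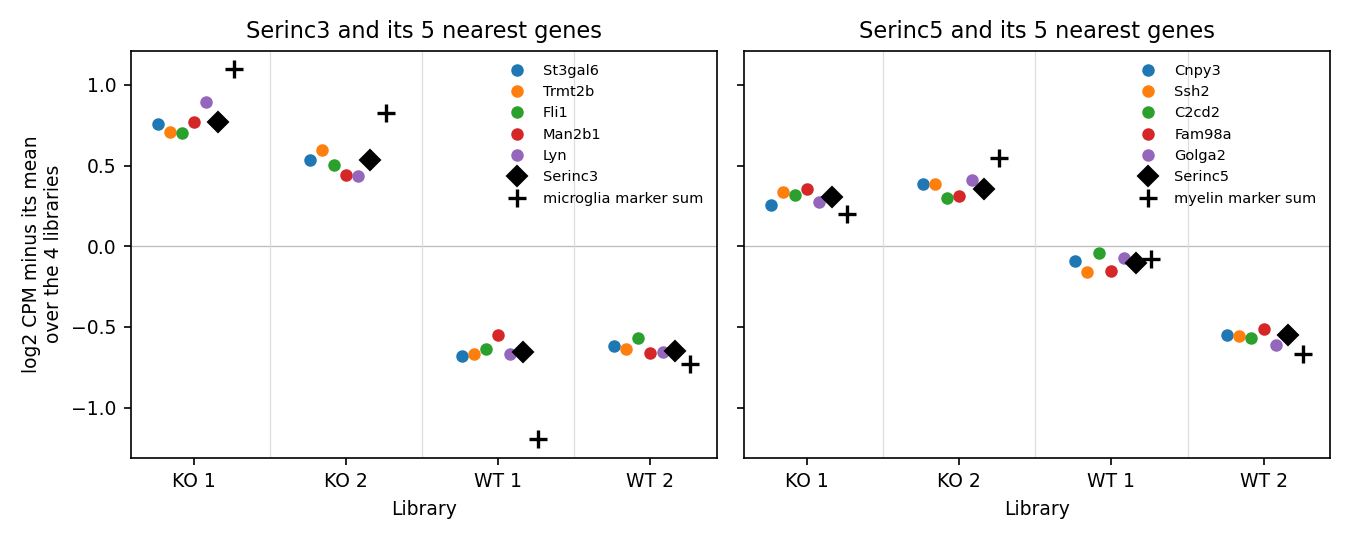
Log2 CPM of Serinc3 (left) and Serinc5 (right), each minus its mean over the 4 libraries, with the 5 genes of most similar course and a marker sum, for KO libraries and then WT libraries. The microglia marker sum spreads wider than Serinc3 between the groups, and the myelin marker sum keeps the library order of Serinc5.

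Ttpal and Pkig, the genes on either side of Serinc3, gave 0.10 ± 0.18 and 0.06 ± 0.27 (SE) as log2 fold changes, with groups that overlapped. Hsf2, a heat shock transcription factor beside Serinc1, had -0.39 ± 0.20, and Thbs4, a thrombospondin beside Serinc5, had -0.43 ± 0.68. Pkib, an inhibitor of protein kinase A lying 99451 bases from Serinc1, had 18.6 and 22.8 CPM in KO, against 3.79 and 5.42 CPM in WT, a log2 fold change of 2.17 ± 0.38 with an edgeR adjusted p of 0.21. Beside Serinc4, Pdia3, an endoplasmic reticulum disulfide isomerase, had 0.32 ± 0.08, with an edgeR adjusted p of 0.38, and Mfap1b, on the other side, had 0.01 ± 0.26. Spz1 beside Serinc5 and the neighbours of Serinc2, Gm853 and Gm10570, had no row in the tables.

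Lists of genes in the processes linked to SERINC proteins held 92 symbols, of which 85 had a row and 75 were tested. Of those without a row, Cert1 and Marchf8 are other symbols of Col4a3bp and March8, which had rows. The edgeR test called 0 of the 75, against 0.017% of all tested genes called higher and 0% lower. Before adjustment, 7 of them had a p under 0.05, all higher in KO, against 5.88% of all tested genes higher and 2.41% lower. DESeq2 called 1 higher, Bst2, against 1.78% of all genes called higher. The limma-voom fit called 0, against 0.141% of all genes called higher. Both KO libraries were above both WT libraries for 19 of the 75 and below for 8, against 21.2% and 18.4% of all tested genes.

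Phosphatidylserine synthesis showed overlapping groups for its 3 genes, while 21.2% of all tested genes were higher in both KO libraries and 18.4% lower. Ptdss1 and Ptdss2, the phosphatidylserine synthases, gave 0.04 ± 0.15 and -0.15 ± 0.23 (SE) as log2 fold changes, and Pisd, which decarboxylates phosphatidylserine, had -0.15 ± 0.26. Their median of -0.15 was 0.13 without WT replicate 1. In de novo sphingolipid synthesis the median log2 fold change of 15 tested genes was -0.03, against -0.00027 over all tested genes, and -0.12 to 0.04 when a library was left out. Cers2, the ceramide synthase for very long acyl chains, averaged 344 ± 30.7 CPM in KO and 304 ± 18.5 CPM in WT (n = 2 libraries per group, SD), while Cers5 and the desaturase Degs1 had overlapping groups. Serine transporters had a median of 0.07 over 10 genes (0.01 to 0.15 when a library was left out). The most abundant, Slc1a4, averaged 999 ± 45.7 CPM in KO and 1091 ± 191 CPM in WT. Slc38a1 and Sfxn1, a mitochondrial serine carrier, had log2 fold changes of 0.04 ± 0.15 and 0.06 ± 0.15 (SE). Groups overlapped for 9 of the 10 transporters. In both KO libraries 1 was higher and 0 were lower, against 21.2% and 18.4% of all tested genes. The exception, Slc38a5, named after its values were seen, had 53.4 and 15.5 CPM in KO, against 13.7 and 6.95 CPM in WT. Its edgeR adjusted p was 0.55.

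Genes listed under sphingolipid headgroup transfer had a median log2 fold change of 0.33 over 9 genes. Of these, 3 were higher in both KO libraries and 2 lower, against 21.2% and 18.4% of all tested genes. The median was -0.06 without KO replicate 1 and 0.25 to 0.35 when 1 of the other 3 libraries was left out. Ugt8a, which makes the myelin lipid galactosylceramide, had 59.4 and 89.3 CPM in KO, against 47.3 and 34.8 CPM in WT, a log2 fold change of 0.86 ± 0.28 with an edgeR adjusted p of 0.48. Ugcg, which makes glucosylceramide, had -0.41 ± 0.23, and St3gal5, the synthase of the ganglioside GM3, had 0.53 ± 0.27. Ugt8a is also among the myelin markers given above.

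Among proteins that move lipids across the membrane, scramblases had a median of -0.02 over 13 tested genes. It was 0.03 to 0.23 when a library was left out, the highest without WT replicate 1. The low count filter was rerun in each such fit, here and for the other lists, so the genes behind these medians could differ. With all libraries and no low count filter the scramblase median was 0.11. Ano6, the calcium-activated scramblase of phosphatidylserine exposure, averaged 110 ± 5.36 CPM in KO and 85.7 ± 24.7 CPM in WT, and Vmp1 and Tmem41b, scramblases of the endoplasmic reticulum, each had -0.02. Flippases, some of which return phosphatidylserine to the inner leaflet, had a median of 0.06 over 14 tested genes. It was -0.09 without WT replicate 1, -0.05 without KO replicate 2 and 0.33 without WT replicate 2. Atp8a1 had 130 and 143 CPM in KO, against 94.2 and 99 CPM in WT, a log2 fold change of 0.50 ± 0.14 with an edgeR adjusted p of 0.45. The flippase subunit gene Tmem30a, counted in this list, had 0.17 ± 0.27, and Atp11a had -0.21 ± 0.16.

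Other antiretroviral factors had a median log2 fold change of 0.31 over 11 tested genes, with 6 of them higher in both KO libraries and 0 lower, against 21.2% and 18.4% of all tested genes. The median was 0.19 without KO replicate 1, 0.48 without KO replicate 2 and 0.60 without WT replicate 1. March8, a ubiquitin ligase that acts on viral envelope proteins, had -0.15 ± 0.19 (SE). Morc2a, a silencer of integrated retroelements, had 0.11 ± 0.30, and Apobec3, a cytidine deaminase, had 0.31 ± 0.21. Bst2, which tethers budding virions to the cell, was not among the most abundant and is named because DESeq2 called it. It had 16.2 and 10.1 CPM in KO, against 2.96 and 2.5 CPM in WT, a log2 fold change of 2.26 ± 0.47 with an edgeR adjusted p of 0.3. Rsad2, an interferon-induced enzyme, had 47 and 13 counts in KO, against 0 and 0 in WT, with an edgeR adjusted p of 0.45. It was at least 19.3-fold higher in KO when WT was set at a floor of 3 counts over the group. This bound does not cover the spread between the KO libraries. Rsad2 was singled out after its values were seen. With Rsad2 at that bound, the list median was 0.31, which could not change because Rsad2 stayed above it.

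**Figure D4:**
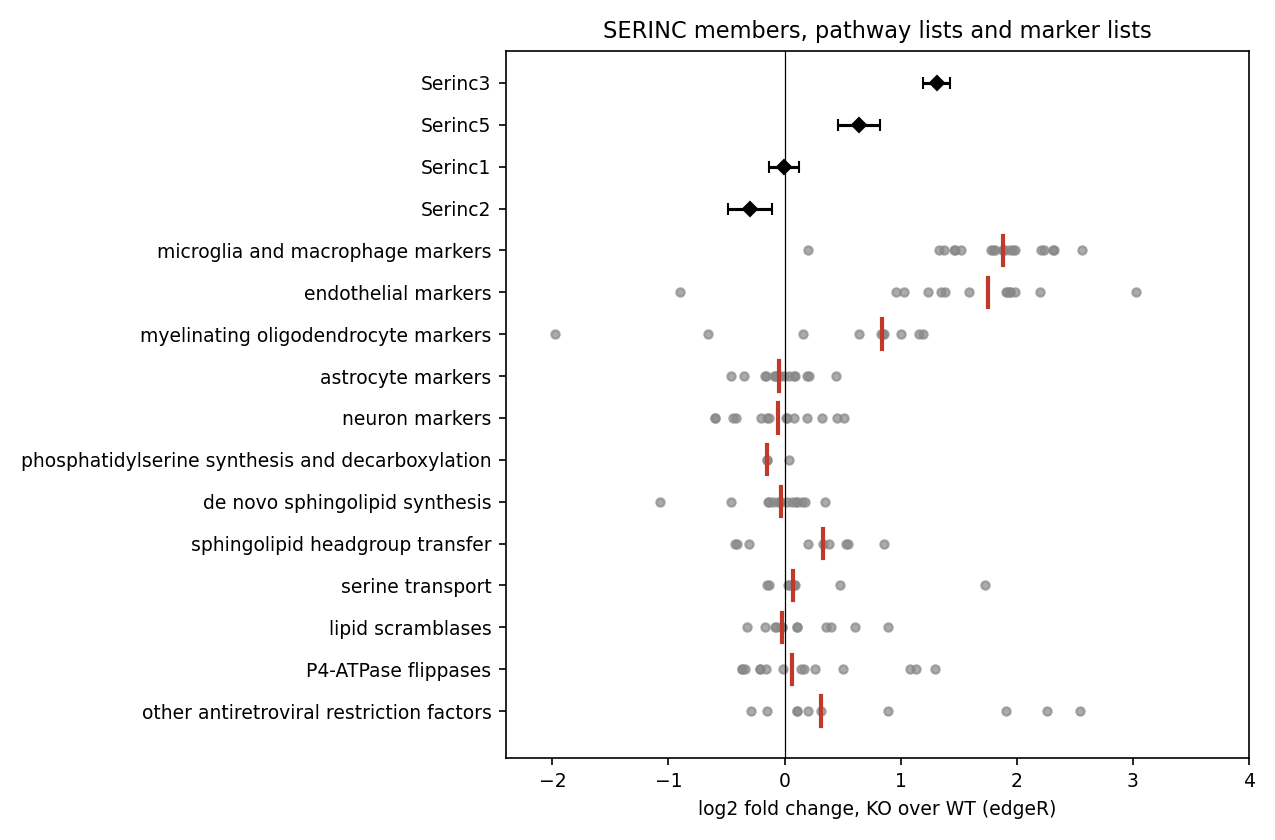
Log2 fold change of KO over WT for the SERINC members (black diamonds with SE) and for the tested genes of 7 pathway lists and 5 marker lists (grey dots), with list medians as red ticks. The axis ends at 4, so Rsad2 is not shown. Serinc3 at 1.31 lies below the microglia marker median of 1.88.

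The marker lists put these values in the setting of the whole preparation. Of the 20 microglia markers, 19 were higher in both KO libraries, against 21.2% of all tested genes. The edgeR test called 1 of them higher, P2ry12, a purinergic receptor of microglia, against 0.017% of all tested genes. Its log2 fold change was 2.56 ± 0.16 (SE), with an edgeR adjusted p of 0.029. Csf1r, the receptor on which microglia depend, averaged 1008 CPM in KO and 269 CPM in WT. The chemokine receptor gene Cx3cr1 had 758 and 716 CPM in KO, against 108 and 190 CPM in WT. No gene was called higher without KO replicate 2, P2ry12 included. Of the 14 endothelial markers, 13 were higher in both KO libraries, against the same 21.2%, and the median log2 fold change of the list was 1.75. The tight junction gene Cldn5 had 273 and 136 CPM in KO, against 78.3 and 24.4 CPM in WT. Pericyte markers had a median of 0.54 and oligodendrocyte precursor markers one of 0.28. Astrocyte and neuron markers had medians of -0.05 and -0.06. Myelinating oligodendrocyte markers had a median of 0.84. Serinc3 at 1.31 and Serinc5 at 0.64 lay between the astrocyte and neuron medians and the microglia and endothelial medians. Of all tested genes, 92.7% had a lower log2 fold change than Serinc3 and 84.6% a lower one than Serinc5. What this placement reflects was not tested.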

How the data were processed

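Counts were joined by gene from 4 tables, each with 1 KO and 1 WT library. The authors deposited whole-number counts per gene, per the file headers. A second column deposited for each library equals CPM, with 0 replaced by 0.5. In the deposited comparison columns, the log2 fold change by the authors is that of these values, and the deposited p-value columns come from a test that the headers do not name. Bowtie2 2.2.3, TopHat2 2.0.12 and HTSeq 0.6.0 are listed without roles in the submitters' processing notes, which name build mm9. Since 21269 of 23475 gene positions (90.6%) equal those of GENCODE M21, coordinates are given on GRCm38. Strand use in counting is not stated there.

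Counts of a library were equal in every table that listed them. A table listed genes counted in both its libraries, and those with 0 in 1 library if the other held 5 or more. Missing counts were set to 0 and can be at most 4, and such genes make up no more than 0.0329% of any library. Totals were 14224519 to 16961160 counts, and counting errors cover sampling only.

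The 2 KO and 2 WT libraries were compared with edgeR 4.0.16 in R 4.3.3 (TMM, filterByExpr with a minimum count of 10, quasi-likelihood test, Benjamini-Hochberg adjustment, threshold 0.05), checked on simulated data. Standard errors are the fold change divided by the square root of F. RPKM is CPM per kilobase of merged exons in GENCODE M21. Alternatives were DESeq2 1.42.0, limma-voom (limma 3.58.1), other scalings and filters, a looser threshold, missing counts set to 4, a replicate block, another gene length and leaving out each library. The members and gene lists were chosen with earlier results of these data known. The text names all members, the 3 most abundant genes and any called gene of each pathway list, adjacent protein-coding genes, and the 5 genes of most similar course. Promoter windows of 4 of the 5 members were matched in the RefSeq table, and those of Serinc2, which lie inside the annotated gene, are not printed. The values of 1 marker gene are not reported here.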

Additional observations from a re-analysis of the deposited data

How the results depend on the processing

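All 4 members kept their direction in the log2 fold change under every alternative except Serinc1, which lay near 0 and ran from -0.11 to 0.10 when a library was left out. Serinc3 ran from 1.19 (without KO replicate 1) to 1.42, Serinc5 from 0.44 to 0.88 (without WT replicate 1) and Serinc2 from -0.41 to -0.17. Among members, only Serinc3 was called under DESeq2, limma-voom, no low count filter, a minimum mean of 5 CPM and an adjusted p under 0.1. The last setting was added for members after the data were seen. The other alternatives that kept all 4 libraries called 0 members. The family was picked from this same contrast, so nothing is read from these member calls. Over all genes, 3 were called higher and 0 lower by edgeR. The counts were 315 higher and 63 lower under DESeq2, 25 and 3 under limma-voom, 52 and 4 with no low count filter, 63 and 5 when genes needed a mean of 5 CPM, and 14 and 1 at an adjusted p under 0.1. Leaving out a library gave 0 (without KO replicate 2) to 41 (without WT replicate 2) genes higher and 0 to 1 lower, with 6 higher without KO replicate 1 and 1 without WT replicate 1. A lone library was then assumed to vary like the other group. The low count filter was rerun on the libraries kept, so the genes tested could differ from those with all 4 libraries. DESeq2 called 1 of the 75 tested pathway genes higher, against 1.78% of all genes. With the longest transcript as gene length, the mean level was 144 RPKM for Serinc1 and 32.7 RPKM for Serinc2, against 80.6 and 26.5 RPKM with merged exons, because the length itself is shorter. Same-numbered libraries deviated from their group means with a correlation of 0.0405 over 17696 genes. This sets 1 difference between libraries against 1 other, so it cannot decide if same-numbered libraries were paired. A fit with the replicate number as a block gave 4 genes higher and log2 fold changes of 1.30 for Serinc3 and 0.66 for Serinc5, and called 0 members. The cause of the differences between tools and filters was not tested. With 2 libraries a group the fit had 2 residual degrees of freedom.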
